A study of Homo sapiens with 9 samples.

Results

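The genes of the 4 human HOX clusters and the noncoding genes named after them were followed through RNA immunoprecipitation (RIP) of the nuclear poly(A) binding protein (PABPN) and of the cytoplasmic poly(A) binding protein (PABPC). Members were all genes of the tables of both RIPs whose symbol begins with HOX or HOTAIR. There were 43 such genes among the 51105 genes listed in both tables, 29 of them protein coding and 14 long noncoding (lncRNA). Coding genes of each cluster are missing from this set, HOXA5, HOXB4, HOXC8 and HOXD4 among them. Counts by cluster and paralogue group are therefore not complete. The material was HEK293T, a wildtype human embryonic kidney line, crosslinked for 10 min in 0.1% formaldehyde. The 3 groups were input RNA from total cell lysate, PABPN RIP and PABPC RIP, with 3 libraries each, and all were made from total RNA that was ribodepleted, with a stranded kit. No group differed in genotype or drug treatment, and the input libraries were the background for both RIPs.

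HOX genes encode homeodomain transcription factors that give cells along the body axis their positional identity. They lie in clusters named A to D, and genes of like position in different clusters form numbered paralogue groups, with low numbers acting towards the head and high numbers towards the tail and the tips of the limbs. The clusters also transcribe antisense and intergenic noncoding RNAs. PABPN binds the poly(A) tail of RNA in the nucleus and PABPC binds it in the cytoplasm, where translation takes place.

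Because both proteins bind poly(A) tails, annotated transcript ends are shown for 1 paralogue group and for the coding members called higher with PABPN. Each line is the last 30 bases of the Ensembl canonical transcript in GENCODE release 44 on hg38, 5′ to 3′, with the poly(A) signal AATAAA in capitals where the sense strand holds it. The first 4 lines are paralogue group 13, which was higher with PABPC, and the others are the coding genes that were higher with PABPN.
HOXA13, minus strand, chr7:27194364-27194393: agaaAATAAAaatgggactttaaaaaaaaa
HOXB13, minus strand, chr17:48724763-48724792: tcactcgcAATAAAttcagagcaaacaaaa
HOXC13, plus strand, chr12:53946515-53946544: tttaaAATAAAatatctttttttgccttga
HOXD13, plus strand, chr2:176095915-176095944: cAATAAAcagaactcttttgtttcttctga
HOXC6, plus strand, chr12:54030794-54030823: AATAAAactgatattatttttaaaacttta
HOXD3, plus strand, chr2:176173069-176173098: aaatatttagAATAAAaaaatttcccagtc
HOXD9, plus strand, chr2:176124908-176124937: atcaaatggagcccagacgctggccctaaa
The signal stood in this window in 24 of the 29 coding members and in 7 of the 14 lncRNA members. The same search found it in 56.6% of the 20046 protein coding genes and in 31% of the 18866 lncRNA genes of the annotation. It was present in all of paralogue group 13 and in HOXC6 and HOXD3, and these letters were not in the window of HOXD9. They were also absent from other members, among them HOXC11, enriched with PABPC RIP, and HOXA10-AS, HOXA-AS3 and HOXD-AS2, higher with PABPC. HOTAIRM1, HOXA-AS2 and HOXD11, enriched in both RIPs, lacked them too. A link between the signal and either protein was not tested.

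The deposited measure is baseMean, the mean over the 6 libraries of a table of read counts divided by a size factor for depth. Its 15 digits allowed the whole reads of single libraries to be recovered for 39 of the 43 members, of which 32 had a single fitting set of reads and 7 were taken from several sets by the spread between replicates (HOXA3, HOXA11, HOXB7, HOXC4, HOXC6, HOXD3 and HOXD13). These 7 are less certain than the rest: by the same rule, means that were moved so that no true set exists still received one in 10 of 300 cases between 500 and 1000 reads, 86 of 300 between 1000 and 1500 and 20 of 300 between 1500 and 2000. HOXA9, HOXB3, HOXB6 and HOXD10 were not recovered. Recovery covered 49.2% and 46.6% of the genes with baseMean above 50 in the tables of PABPN and PABPC, mainly the less abundant ones, so "all genes tested" below means these. Libraries are named a to c within a group, and the letters pair nothing across groups. They held 2.82 to 4.24 M reads on recovered genes. The markers of the line's neurofilament and mesenchymal character, NEFL, NEFM and VIM, had a baseMean of 13854, 56817 and 9896 in the PABPN table, whereas 6 markers of blood, liver and muscle ranged from 0 (HBB) to 8.64 (ALB).

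Against input, the HOX members that passed the test were all enriched, 13 with PABPN RIP and 19 with PABPC RIP, and none passed as depleted. With PABPN RIP, 13 of 29 tested members were enriched, beside 19.6% of all genes tested that were higher and 7.48% that were lower. With PABPC RIP, 19 of 29 were enriched, beside 38.1% of all genes tested that were higher and 32.6% that were lower. Calls required an adjusted p of at most 0.01, a log2 change beyond 0.5 and a baseMean above 50, and limma gave 0 depleted members in both comparisons. At an unadjusted p under 0.05, 1 member was lower with PABPN RIP (HOXA7) and 1 with PABPC RIP (HOXB-AS1). In other settings HOXB13 was called depleted with PABPN RIP in the fit over all 9 libraries, and HOXB-AS1 with PABPC RIP in some. The fit over all 9 libraries also took size factors over recovered genes and needed the baseMean limit in both tables. It called 10 members enriched with PABPN RIP. Of the 28 members tested in both comparisons, 6 were enriched in both RIPs, 6 with PABPN alone, 12 with PABPC alone and 4 in neither. Such joint counts were not made over all genes, so these cannot be set beside a background. The word alone rests on the limits of the call, as for HOXC5 with an adjusted p of 0.0107 with PABPC RIP. A baseMean limit favours genes that are high in a RIP. HOTAIR and HOXC5 in the PABPN table and HOXC11 and HOXC5 in the PABPC table passed it with a mean of input of at most 50. Over genes with a mean of input above 50, a filter added after the data were seen, 11 of 27 members were enriched with PABPN RIP and 18 of 27 with PABPC RIP, beside 18.1% and 36% of all such genes. Both comparisons share the input libraries. In such bulk libraries, RNA present in more cells and more RNA per cell cannot be told apart.

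**Figure D1:**
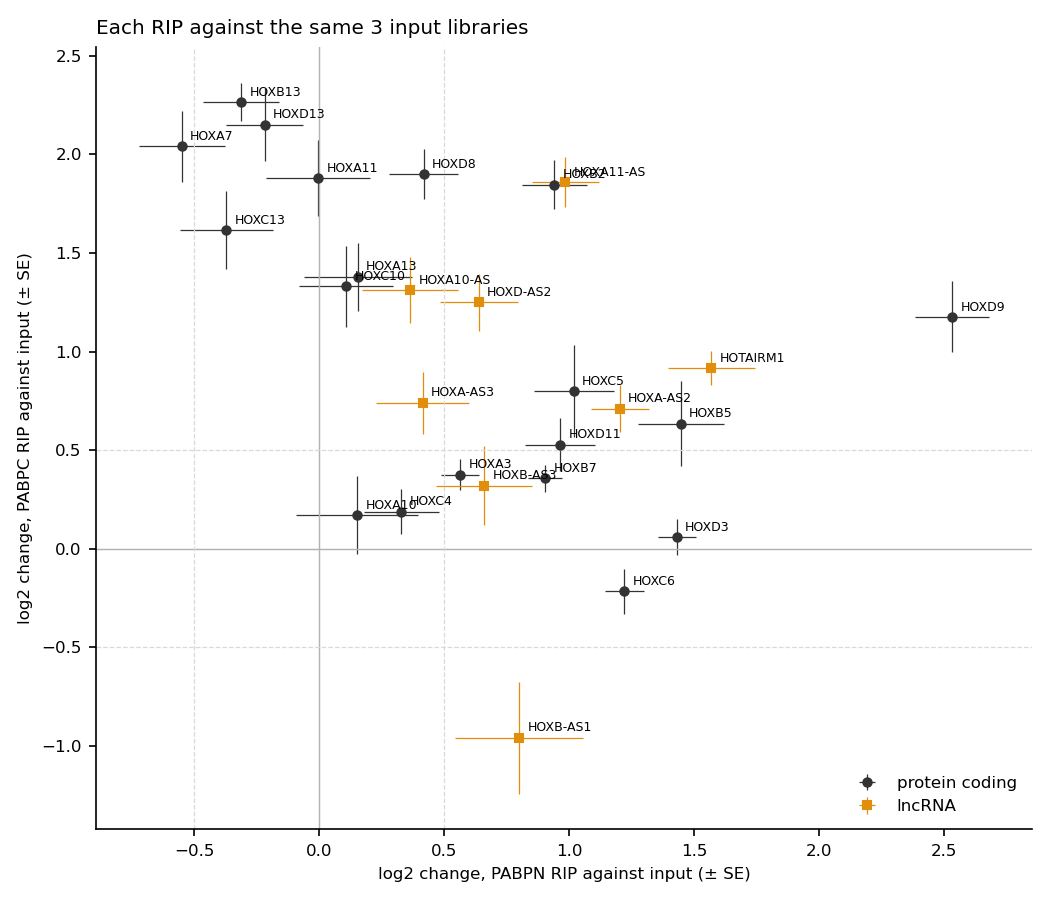
The log2 change of the members tested in both comparisons, 1 left out, with PABPN RIP against input on the horizontal axis and PABPC RIP against input on the vertical axis, bars being the SE and dashed lines the limits of 0.5. HOXD9 lies farthest right at 2.53, HOXB13 highest at 2.27, and HOXB-AS1 lowest at -0.96.

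Set directly against each other, the RIPs divided the members. Of 28 tested members, 14 were higher with PABPC RIP and 4 higher with PABPN RIP, beside 39.6% and 30.7% of all genes tested. The RIPs were scaled by size factors taken over recovered genes. With the size factors of the tables instead, a scaling added after the data were seen, the median of all genes moved by 0.45 on the log2 scale, 13 members were higher with PABPC and 7 higher with PABPN, beside 29.2% and 41.3% of all genes. No member was called in opposite directions by the scalings, 13 were higher with PABPC and 4 higher with PABPN under both, and 5 changed the sign of their log2 change. Values per library below are reads on the scale of the PABPN table, and they are not divided by gene length, so levels are not compared between genes. Changes between the RIPs below use the size factors over recovered genes unless said otherwise. They therefore lie lower than the printed reads give, as in HOXD3 with 0.91, or 1.37 with the size factors of the tables.

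**Figure D2:**
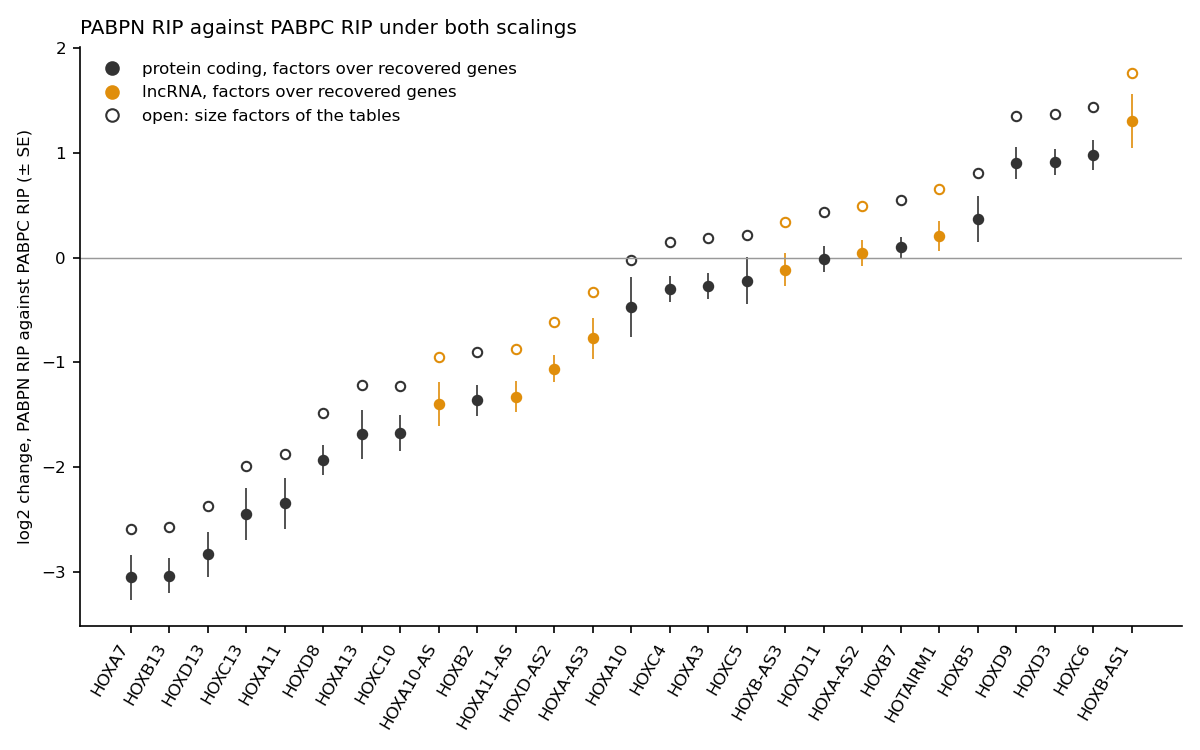
The log2 change of PABPN RIP against PABPC RIP for 27 of the tested members in rising order, filled points with SE bars for size factors over recovered genes and open points for the size factors of the tables. Members run from HOXA7 at -3.05 to HOXB-AS1 at 1.30, and the open points lie higher throughout.

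All 4 genes of paralogue group 13, the last of the numbered groups, were higher with PABPC RIP than with PABPN RIP. Over all protein coding genes tested, 49% were. Other paralogue groups had at most 2 tested members, so no group of like size stands beside it. HOXB13, known for its part in prostate development, had a baseMean of 171 with PABPN and 471 with PABPC, the order in which the tables are given below. It gave 184, 191 and 193 reads in input, 171, 162 and 127 with PABPN RIP and 888, 932 and 920 with PABPC RIP. All PABPC libraries lay far above all others, and the log2 change between the RIPs was -3.04 (SE 0.16, adjusted p = 1.56e-07). HOXD13, needed to form digits, had a baseMean of 698 and 1758. It gave 613, 820 and 831 reads in input, 712, 668 and 541 with PABPN RIP and 2561, 3837 and 3676 with PABPC RIP. The PABPN libraries overlapped input and the PABPC libraries did not, with a log2 change between the RIPs of -2.83 (SE 0.21, adjusted p = 1.08e-06). HOXC13, which acts in hair follicles, had a baseMean of 116 and 232. It gave 117, 129 and 147 reads in input, 117, 108 and 80.7 with PABPN RIP and 319, 436 and 482 with PABPC RIP. Again only PABPC RIP lay above input, and the change between the RIPs was -2.45 (SE 0.25, adjusted p = 7.9e-06). HOXA13, which acts in the limb and the urogenital tract, had a baseMean of 642 and 936. It gave 474, 671 and 676 reads in input, 730, 817 and 483 with PABPN RIP and 1292, 1718 and 1738 with PABPC RIP. Its change between the RIPs was the smallest of the group at -1.69 (SE 0.23, adjusted p = 7.68e-05).

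Against input, the same genes rose with PABPC RIP by 1.38 (HOXA13), 1.62 (HOXC13), 2.15 (HOXD13) and 2.27 (HOXB13) on the log2 scale. With PABPN RIP their changes from input were 0.15, -0.37, -0.22 and -0.31 in that order, and none of these passed the test.

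**Figure D3:**
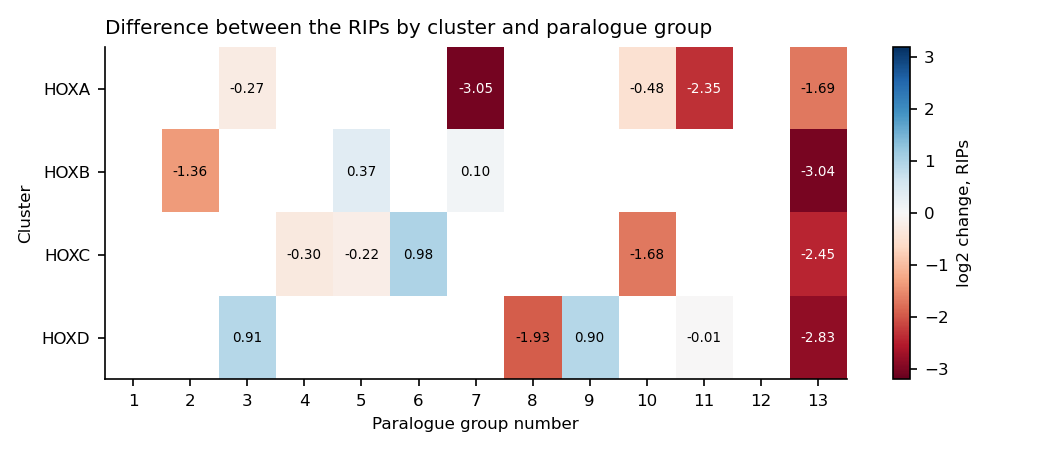
The log2 change of PABPN RIP against PABPC RIP for 19 of the tested coding members, by cluster on the vertical axis and paralogue group number on the horizontal axis, red being higher with PABPC and blue higher with PABPN. Group 13 runs from -3.04 to -1.69, and blank squares have no value shown.

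Other coding members that were higher with PABPC RIP came from several groups. HOXA7 had a baseMean of 129 and 339. It gave 130, 174 and 158 reads in input, 109, 113 and 90.4 with PABPN RIP and 521, 699 and 697 with PABPC RIP. No groups overlapped, and its change between the RIPs, -3.05 (SE 0.21, adjusted p = 6.73e-07), was the largest in size among the 28 tested members. HOXA11, which acts in the limb and the female reproductive tract, had a baseMean of 618 and 1244. It gave 487, 660 and 711 reads in input, 749, 646 and 452 with PABPN RIP and 1766, 2493 and 2610 with PABPC RIP. PABPN RIP overlapped input, and the change between the RIPs was -2.35 (SE 0.24, adjusted p = 9.11e-06).

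HOXD8 had a baseMean of 109 and 189. It gave 90.1, 93.4 and 96.1 reads in input, 129, 119 and 125 with PABPN RIP and 337, 360 and 351 with PABPC RIP. The 3 groups did not overlap, and the change between the RIPs was -1.93 (SE 0.15, adjusted p = 1.07e-06). HOXC10, which acts in the lumbar region and hindlimb, had a baseMean of 84.0 and 121. It gave 99.8, 68.4 and 74.9 reads in input, 83.1, 95.0 and 82.6 with PABPN RIP and 243, 171 and 194 with PABPC RIP. PABPN RIP lay within the range of input, and the change between the RIPs was -1.68 (SE 0.17, adjusted p = 8.17e-06). HOXB2, a hindbrain gene, had a baseMean of 207 and 280, and gave 149, 143 and 132 reads in input, 292, 256 and 269 with PABPN RIP and 467, 529 and 548 with PABPC RIP. It rose with both proteins, by 0.94 (adjusted p = 0.000612) with PABPN RIP and by 1.85 (adjusted p = 1.83e-06) with PABPC RIP, and its change between the RIPs was -1.36 (adjusted p = 1.22e-05). HOXC11, with a baseMean of 35.4 and 59.0, was tested in the PABPC table alone. It gave 26.2, 30.4 and 25.7 reads in input, 50.4, 32.9 and 46.7 with PABPN RIP and 116, 89.0 and 127 with PABPC RIP, and its change with PABPC RIP was 1.98 (adjusted p = 4.25e-05). It passed the baseMean limit through PABPC RIP alone, so this direction was favoured by the limit.

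Among the 10 coding members called higher with PABPC, the lowest library of its group was input a in 8, PABPN RIP c in 8 and PABPC RIP a in 9. Over all genes tested, those libraries were the lowest in 36.5%, 36% and 37.9%. The part of these libraries in the result was not tested. Every one of the 10 calls held when any single RIP library was left out. Input libraries are not in the comparison between the RIPs, so this says nothing of input a.

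A smaller set of coding members was higher with PABPN RIP. HOXD9 had a baseMean of 317 and 131. It gave 108, 86.9 and 84.9 reads in input, 583, 496 and 544 with PABPN RIP and 219, 175 and 245 with PABPC RIP. The 3 groups did not overlap, with a rise against input of 2.53 (SE 0.15, adjusted p = 1.11e-05) with PABPN RIP and of 1.18 (SE 0.18, adjusted p = 0.000258) with PABPC RIP. Its change between the RIPs was 0.90 (SE 0.15, adjusted p = 0.000281). HOXD3 had a baseMean of 1556 and 737. It gave 802, 889 and 838 reads in input, 2378, 2181 and 2250 with PABPN RIP and 827, 871 and 947 with PABPC RIP. PABPC RIP overlapped input, and PABPN RIP was higher than PABPC RIP by 0.91 (SE 0.12, adjusted p = 5.9e-05). HOXC6, a gene of the thoracic region, had a baseMean of 1091 and 524. It gave 615, 672 and 680 reads in input, 1510, 1570 and 1500 with PABPN RIP and 491, 623 and 596 with PABPC RIP, and PABPN RIP was higher than PABPC RIP by 0.98 (SE 0.15, adjusted p = 0.000129). HOXD3 and HOXC6 are among the members whose reads were taken from several fitting sets, and without such genes 2 members were higher with PABPN RIP.

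HOXB5 had a baseMean of 194 and 116, and gave 90.1, 98.8 and 124 reads in input, 301, 306 and 242 with PABPN RIP and 126, 171 and 200 with PABPC RIP. It rose by 1.45 (adjusted p = 0.000294) with PABPN RIP, and its change of 0.63 with PABPC RIP had an adjusted p of 0.0222 and passed without PABPC RIP a. HOXB7 had a baseMean of 1865 and 1264, and gave 1303, 1284 and 1306 reads in input, 2388, 2318 and 2592 with PABPN RIP and 1708, 1610 and 1660 with PABPC RIP. It rose by 0.90 (adjusted p = 3.51e-05) with PABPN RIP, while its change of 0.36 with PABPC RIP was under the limit of 0.5. Between the RIPs, HOXB5 and HOXB7 passed the test with the size factors of the tables (0.81 and 0.55) but not with those over recovered genes (0.37 and 0.10).

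HOXC5 had a baseMean of 67.6 and 53.1, and gave 46.5, 43.4 and 43.6 reads in input, 93.7, 87.2 and 91.4 with PABPN RIP and 68.9, 105 and 65.7 with PABPC RIP. Every RIP library lay above input, but PABPN RIP alone passed the test (1.02, adjusted p = 0.0012, against 0.80, adjusted p = 0.0107), and its change with PABPC RIP passed without PABPC RIP a. HOXC5 passed the baseMean limit in both tables through the RIPs, which favoured a rise. HOXD11 had a baseMean of 224 and 158, and gave 169, 144 and 141 reads in input, 290, 272 and 327 with PABPN RIP and 234, 212 and 206 with PABPC RIP. It rose with both, by 0.96 (adjusted p = 0.000793) and 0.53 (adjusted p = 0.00532), and the latter call was lost when any of 5 of the 6 libraries was left out. HOXA3 had a baseMean of 1391 and 1105, and gave 1055, 1172 and 1148 reads in input, 1701, 1720 and 1550 with PABPN RIP and 1408, 1505 and 1463 with PABPC RIP. It rose by 0.56 (adjusted p = 0.000543) with PABPN RIP, close to the limit of 0.5, and changed by 0.38 with PABPC RIP.

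The remaining tested coding members passed no test. HOXA10 had a baseMean of 224 and 193, and gave 175, 239 and 215 reads in input, 302, 254 and 157 with PABPN RIP and 185, 252 and 287 with PABPC RIP, all overlapping. HOXC4 had a baseMean of 946 and 760, and gave 985, 789 and 728 reads in input, 1013, 911 and 1250 with PABPN RIP and 976, 954 and 903 with PABPC RIP, with overlap as well.

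The abundant members that were not recovered have values for the whole group alone. The mean of input cancels when the baseMeans of the tables are subtracted on 1 scale, which leaves the mean of PABPN RIP minus that of PABPC RIP. HOXB3 had a baseMean of 3357 and 1487, HOXB6 of 2786 and 1408, HOXD10 of 2469 and 1207, and HOXA9, which acts in blood stem cells, of 3306 and 2485. PABPN RIP exceeded PABPC RIP by 3236 normalised reads in HOXB3, 2279 in HOXB6, 2115 in HOXD10 and 800 in HOXA9. PABPN RIP was thus at least 1.91-fold, 1.68-fold, 1.73-fold and 1.13-fold higher in that order on the scale of the tables, with no test. On the scale of the recovered genes, from the shift of 0.45 in the median, the bounds were 1.40 for HOXB3, 1.22 for HOXB6, 1.27 for HOXD10 and 0.823 for HOXA9, so that the direction of HOXA9 was not fixed.

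The other coding members had low values in both tables. HOXB1 had a baseMean of 0.324 and 0. HOXD12 had 7.08 and 13.7, HOXC12 had 16.2 and 12.9, and HOXD1 had 21.8 and 27.4. HOXD12 gave 8.72, 6.51 and 4.47 reads in input, 5.31, 9.69 and 7.78 with PABPN RIP and 26.1, 29.2 and 20.9 with PABPC RIP, so that only PABPC RIP stood apart.

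**Figure D4:**
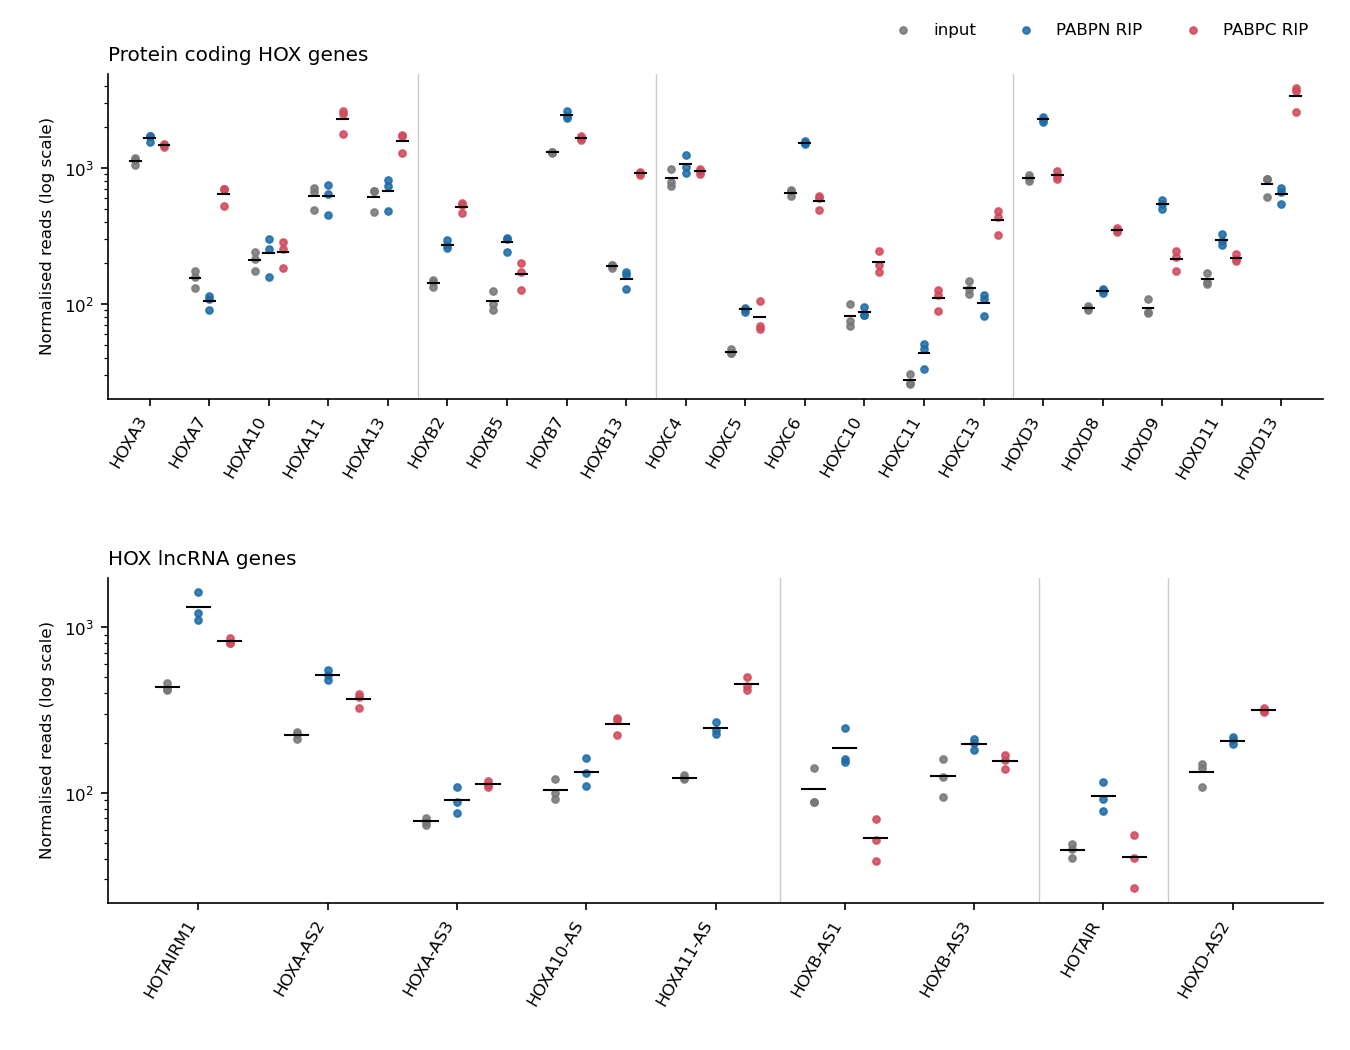
Normalised reads of the recovered members with baseMean above 50 in either table, 1 left out, on a log scale, with 1 point per library and black bars for the group means, and with grey lines between clusters A, B, C and D. HOXB13 and HOXD13 show PABPC RIP far above the other groups, and HOXD9 shows PABPN RIP highest, at 496 to 583 reads.

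By cluster, coding members higher with PABPC RIP than with PABPN RIP numbered 4 of 6 tested in HOXA (on chromosome 7), 2 of 4 in HOXB (17), 2 of 5 in HOXC (12) and 2 of 5 in HOXD (2). Those higher with PABPN RIP numbered 0, 0, 1 and 2. Together these were 50% and 15% of the 20 coding members tested, beside 49% and 20.3% of all protein coding genes tested, so the share higher with PABPC was close to that of protein coding genes in general. The members not recovered are outside these counts. HOXB3, HOXB6 and HOXD10 passed the highest mean tried, 2000, in the PABPN table alone, so this limit worked against counting members higher with PABPN. In these, PABPN RIP was at least 1.40, 1.22 and 1.27-fold higher on the scale of the recovered genes, with no test. The median coding log2 change was 0.37 with PABPN RIP and 1.33 with PABPC RIP against input, beside 0.05 and 0.38 over all protein coding genes tested. The PABPN median was 0.090 in 1 fit over all 9 libraries, which also used size factors over recovered genes in place of those of the tables. The part of the scaling in that change was not tested. Between the RIPs the coding median was -0.92, beside -0.54 over all protein coding genes tested, and it was -0.46 with the size factors of the tables and -0.32 with totals of reads. The -0.54 does not apply to these other scales. With the size factors of the tables the median over all genes tested was 0.27 instead of -0.18.

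Introns and exons were counted together by the authors, so the length of a gene's body enters its value. The 5 tested coding members spanning more than 20 kb (HOXA3, HOXB7, HOXC4, HOXC6 and HOXD3) ranged from -0.30 to 0.98 between the RIPs, with 0 called higher with PABPC. All 5 are among the members whose reads were taken from several fitting sets. The 15 shorter ones ranged from -3.05 to 0.90, with 10 called higher with PABPC. Over all protein coding genes tested, of any span, 49% were. All genes were not split by span, so these counts have no background of like length, and a part of length was not tested. Over the 20 members, the change between the RIPs and the log10 span had r = 0.46 and rho = 0.24, and the change and the paralogue group number had r = -0.43 and rho = -0.45. These are descriptions over genes that share libraries and, in part, transcribed sequence.

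Of the lncRNA members, 9 had a baseMean above 50 in either table, and they were enriched against input more often than depleted. With PABPN RIP, 4 of 9 tested were enriched, and with PABPC RIP 6 of 8, beside 22.6% and 21.1% of all lncRNA genes tested. Their median change was 0.80 with PABPN RIP and 0.83 with PABPC RIP, beside 0.26 and -1.03 over all lncRNA genes tested, of which 861 of 1519 were lower with PABPC RIP. Between the RIPs, 4 of 8 were higher with PABPC, 1 was higher with PABPN and the median was -0.44. Over all lncRNA genes tested, 14.2% were higher with PABPC, 59.5% were higher with PABPN and the median was 1.05. The median of the HOX lncRNAs was 0.0061 with the size factors of the tables. On that scale the median over all genes tested was 0.27 instead of -0.18, and none was taken over all lncRNA genes.

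The HOXA cluster held 5 lncRNAs. HOTAIRM1, known from myeloid differentiation, had a baseMean of 875 and 537. It gave 457, 426 and 420 reads in input, 1111, 1220 and 1618 with PABPN RIP and 806, 803 and 857 with PABPC RIP. The groups did not overlap, with rises of 1.57 (adjusted p = 0.000215) and 0.92 (adjusted p = 1.25e-05). HOXA-AS2 had a baseMean of 370 and 252. It gave 227, 212 and 232 reads in input, 516, 482 and 551 with PABPN RIP and 381, 327 and 393 with PABPC RIP, and rose by 1.20 (adjusted p = 0.000106) and 0.71 (adjusted p = 0.000483). Between the RIPs, HOTAIRM1 passed the test with the size factors of the tables alone and HOXA-AS2 with neither.

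HOXA11-AS had a baseMean of 185 and 246. It gave 123, 121 and 127 reads in input, 269, 240 and 227 with PABPN RIP and 439, 420 and 499 with PABPC RIP, rose in both, and was higher with PABPC than with PABPN (-1.33, SE 0.15, adjusted p = 1.45e-05). HOXA10-AS had a baseMean of 119 and 156. It gave 92.0, 121 and 99.4 reads in input, 162, 131 and 110 with PABPN RIP and 223, 284 and 273 with PABPC RIP, so that only PABPC RIP stood clear of input (-1.40 between the RIPs, SE 0.21, adjusted p = 0.000136). HOXA-AS3 had a baseMean of 78.8 and 76.9. It gave 63.9, 70.6 and 67.0 reads in input, 108, 75.6 and 87.5 with PABPN RIP and 108, 112 and 118 with PABPC RIP, and rose with PABPC RIP (0.74, adjusted p = 0.00195). Its call between the RIPs was lost with the size factors of the tables (-0.33, adjusted p = 0.142) and without PABPN RIP b, PABPC RIP b or PABPC RIP c.

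In the HOXB cluster, HOXB-AS1 had a baseMean of 146 and 68.1. It gave 141, 87.9 and 88.3 reads in input, 154, 159 and 246 with PABPN RIP and 69.9, 51.8 and 38.8 with PABPC RIP. PABPC RIP lay below every other library, and PABPN RIP was higher than PABPC RIP by 1.30 (SE 0.25, adjusted p = 0.000812). Against input, its changes of 0.80 (adjusted p = 0.0312) and -0.96 (adjusted p = 0.0117) did not pass, but the latter passed without PABPC RIP a. HOXB-AS3 had a baseMean of 162 and 120, gave 159, 125 and 95.0 reads in input, 200, 210 and 181 with PABPN RIP and 169, 157 and 139 with PABPC RIP, and passed no test. Its change with PABPN RIP passed without input a. HOXB-AS4 had a baseMean of 12.1 and 7.51.

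In the HOXC cluster, HOTAIR, an antisense RNA first described as acting on the HOXD cluster, had a baseMean of 70.3 and 36.7. It gave 49.4, 45.6 and 40.2 reads in input, 77.8, 92.1 and 117 with PABPN RIP and 55.3, 26.6 and 40.3 with PABPC RIP. PABPN RIP lay above input in every library, with a change of 1.05 (SE 0.21, adjusted p = 0.00403). HOTAIR passed the baseMean limit through PABPN RIP alone, which favoured this direction, and in the PABPC table, where the RIP overlapped input, it was under the limit. The call was lost without PABPN RIP b, input b or input c. HOXC-AS1 (27.4 and 28.5), HOXC13-AS (18.8 and 19.1), HOXC-AS2 (18.0 and 16.5) and HOXC-AS3 (3.58 and 3.38) had a low baseMean. HOXC-AS1 gave 14.5, 15.2 and 17.9 reads in input, 36.3, 37.8 and 42.8 with PABPN RIP and 56.3, 43.8 and 52.3 with PABPC RIP, with no overlap between the groups.

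In the HOXD cluster, HOXD-AS2 had a baseMean of 170 and 192. It gave 150, 141 and 108 reads in input, 216, 196 and 208 with PABPN RIP and 325, 311 and 309 with PABPC RIP. It rose with PABPC RIP by 1.25 (adjusted p = 4.32e-05), and its change of 0.64 with PABPN RIP had an adjusted p of 0.0104. It was higher with PABPC than with PABPN (-1.06, SE 0.13, adjusted p = 2.9e-05).

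Many members overlap in the genome. In GENCODE release 44, 36 of the 43 genes overlap another member, in 21 pairs on opposite strands and 8 on the same strand. The authors removed stretches shared by genes from their annotation, and the strand setting of their counting is not given in the sources used here, so values of overlapping members are uncertain. HOXA11 and HOXA11-AS changed between the RIPs by -2.35 and -1.33, HOXD8 and HOXD-AS2 by -1.93 and -1.06, and HOXA10 and HOXA10-AS by -0.48 and -1.40. HOXB2 and HOXB-AS1 changed by -1.36 and 1.30, in opposite directions. HOXD-AS2 (-1.06) also covers the whole of HOXD9, 2219 bases, and 487 bases of HOXD3 on the opposite strand. HOXD9 and HOXD3 changed by 0.90 and 0.91, opposite in direction to HOXD-AS2.

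Genes that act with or on HOX genes were read from the same fits, most of the cofactors, Polycomb and Trithorax genes being too abundant to be recovered. Of the cofactors of the TALE class, 3 of 9 were tested between the RIPs, with PKNOX2 highest with PABPN (1.94, adjusted p = 1.33e-06) and MEIS3 the one higher with PABPC (-0.96, adjusted p = 0.000486). Of 23 Polycomb genes, which keep HOX clusters silent, 6 were tested, 4 of which were higher with PABPC and 1 with PABPN. RING1 was lowest (-1.76, adjusted p = 3.65e-07) and CBX7 highest (0.68, adjusted p = 0.000702). Of 11 Trithorax genes, which keep them active, ASH2L alone was tested (-0.74, adjusted p = 0.000142). Of 6 ParaHox genes, relatives of the HOX genes outside the clusters, CDX2 (-2.45, adjusted p = 7.77e-06) and PDX1 (-1.18, adjusted p = 0.000786) were tested and higher with PABPC. The other ParaHox genes had a baseMean of at most 0.737 in either table. Over all protein coding genes tested, 49% were higher with PABPC and 20.3% with PABPN, and coding lists this short cannot be told apart from these shares. Of 12 other genes of the HOX loci, HAGLR alone was tested between the RIPs (-1.26, adjusted p = 8.18e-06), and HOTTIP rose with PABPN RIP against input (1.39, adjusted p = 0.000528). With the size factors of the tables, MEIS3, ASH2L and PDX1 were no longer called (-0.52, -0.28 and -0.73), nor was CBX8 among the Polycomb genes (-0.48), and the other calls between the RIPs held.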

How the data were processed

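Per the labels and the study's methods, the authors aligned single-end reads of 75 nt to hg38 with STAR, counted them with featureCounts 2.0.2 on an annotation derived from GENCODE release 34, introns and exons together, removed stretches shared by genes and genes with transcription from an upstream neighbour, and compared each RIP with input in DESeq2. The deposited signal column, baseMean, is the mean of counts divided by size factors over the 6 libraries of a table, and the other column used is a gene length in bases. The deposited fold changes, errors, statistics and p-values of the authors' comparisons were not used.

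Each baseMean is a sum of whole reads times library weights, which are its most frequent lowest values. Weights found in both tables were taken as input, since both tables hold the input libraries, so a library's group rests on this structure and not on a label, and its replicate number is unknown. Whole reads fitting both means were found by lattice reduction for means up to 2000. Where several sets fitted, the one with a posterior of at least 0.99 under the spread of other genes was taken, and above a mean of 1000 recovery rests on that spread. Reads were checked by solving the tables apart, which gave the same input reads in 17870 of 17870 genes with means up to 20, and the steps were tested on simulated data. As the files used here hold no column of counts, reads were fitted with limma 3.58.1 (voom, two-sided, Benjamini-Hochberg over all genes tested) in R 4.3.3, with the tables' size factors against input and median-of-ratios factors between the RIPs. Intervals cover counting and library spread only. The authors describe independent biological replicates, with lysates shared between antibodies, and pairing could not be used.

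Members with baseMean above 50 in either table are named with values except 1 that is not reported here and enters the counts alone, the others by counts unless they are lncRNA, and from each list the highest and lowest tested gene between the RIPs. HOX members and lists were chosen with earlier results of these data known. A filter on baseMean favours genes high in a RIP.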

Additional observations from a re-analysis of the deposited data

How the results depend on the processing

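No paired analysis was possible because the recovered libraries carry no replicate number. Of 177 alternative values, 149 kept their direction and were within 1.5 times the reported value for a count, or within about the spread between replicates for a median, which allowed the lncRNA median between the RIPs to go to -0.26 when centred and the coding median with PABPN RIP to 0.24 with totals of reads; the cause of the others was not tested unless the setting itself shows it. With PABPN RIP against input, enriched members numbered 8 for a change beyond 1, 7 in the test that the change exceeds 0.5 and 12 to 14 with each library left out, and 1 member was depleted in 1 fit over all 9 libraries against 0 otherwise. With PABPC RIP they numbered 11 with baseMean above 200, and 18 to 20 with each library left out, with 0 to 1 depleted, and 1 was depleted with baseMean above 10, with a log scale and pseudocount of 1 or 5, and with totals of reads. Between the RIPs, members higher with PABPN numbered 2 with baseMean above 200, 1 for a change beyond 1, 2 for genes with a single set of reads, 2 in the test that the change exceeds 0.5, 9 with totals of reads, 7 with the size factors of the tables and 4 with each library left out, and those higher with PABPC numbered 4 with baseMean above 200 and 13 to 14 with each library left out. The median change of coding members with PABPN RIP was 0.090 with all 9 libraries, 0.73 with baseMean above 200 and 0.34 to 0.44 with each library left out, and that of lncRNA members 0.44, 1.39 and 0.69 to 0.98. Against input, the fits over all 9 libraries also took size factors over recovered genes, so libraries and scaling were changed together. With PABPC RIP the median was 1.17 to 1.30 (coding) and 0.80 to 0.86 (lncRNA) with each library left out, and 0.55 (lncRNA) with totals of reads. Between the RIPs the coding median was -1.29 with baseMean above 10, -0.30 with baseMean above 200, -0.46 with the size factors of the tables, -0.32 with totals of reads and -1.12 to -0.82 with each library left out. The lncRNA median between the RIPs turned from -0.44 to 0.12 with baseMean above 200, to 0.0061 with the size factors of the tables and to 0.15 with totals of reads, and ran from -0.53 to -0.37 with each library left out. With the size factors of the tables the median of all genes rose by 0.45 as well. With the tolerance 10 times wider, 32 members were recovered. The tables' size factors, the limit on input and the fit without several-set genes were chosen after seeing the data. Depth limits the 9 members with baseMean of at most 50 in both tables, and abundance limits the 4 that were not recovered.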
